A study of Mus musculus with 16 samples.

Results

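The 10 genes described here encode enzymes and partners that write, remove or maintain DNA methylation and Polycomb marks: the DNA methyltransferase genes Dnmt1, Dnmt3a and Dnmt3b, the maintenance partner gene Uhrf1, the TET dioxygenase genes Tet1, Tet2 and Tet3, the Polycomb methyltransferase genes Ezh1 and Ezh2, and Asxl1. The list was drawn up by gene name, with earlier results of these data known, and its genes are 10 of the 46078 genes in the count table. All 10 passed the filter on low counts in every comparison.

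Haematopoietic stem cells (HSCs) were sorted in pools of 30 by the phenotype lin-Sca1+cKit+ (LSK) CD48-CD150+, from the bone-associated (endosteal) or central bone marrow (BM) of untreated C57/Bl6 mice. The mice were wild-type (WT) or lacked Gfra2 in all cells (Gfra2-/-), the gene of a receptor that cholinergic neurons need, so the deletion is not limited to HSCs. RNA-Seq followed Smart-seq2, and 15 libraries were used: 4 from endosteal and 4 from central WT BM, and 4 from endosteal and 3 from central Gfra2-/- BM. The ages of the mice are not given in the sources used here. Libraries are lettered A to D within a group, in table order, and a letter does not pair libraries of different groups.

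Total counts on genes ranged from 826487 to 18550008 per library, and were lowest in central WT BM (826487 to 3367289), where libraries A and C had 1230252 and 826487. Spike-in RNA made up less than 0.5% of counts in 4 libraries, 1 in each group, and more in the other 11. Gfra2 had 0, 0, 0 and 1 counts in endosteal WT, 0, 0, 4 and 0 in central WT, 2, 47, 1 and 9 in endosteal Gfra2-/- and 0, 1 and 0 in central Gfra2-/- libraries. The 47 and 9 counts in libraries B and D were 2.37 and 0.789 CPM (counts scaled to the same library total), and put their genotype label in question. Central WT library C had 5.36 CPM from its 4 counts, and counts per gene do not show which exons were read. The counts can therefore not settle the label, and both Gfra2-/- groups are described as libraries labelled Gfra2-/-. Genes of the sort gate and of HSC identity (9 of 9 with counts in each group) summed to 1799 to 3978 CPM. They include Cd48, which the cells were sorted to lack. Cd48 had counts in 13 of the 15 libraries, at 17.4 CPM or less. Neutrophil markers reached 2832 CPM in central WT library D, and B cell and erythroid markers 1730 and 670 CPM in endosteal library D labelled Gfra2-/-, against medians of 1.81, 76.0 and 63.5 CPM over the 15 libraries. Their part in the results was not tested.

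DNMT3A and DNMT3B place methyl groups on unmethylated CpG sites, whereas DNMT1 copies methylation to the new strand after replication, guided by UHRF1, which binds hemimethylated DNA. TET enzymes oxidize methylcytosine, a first step of demethylation. EZH1 and EZH2 are the alternative catalytic subunits of Polycomb repressive complex 2 (PRC2), which methylates histone H3 at lysine 27, and ASXL1 is a partner of the deubiquitinase BAP1, which removes the ubiquitin that PRC1 adds to histone H2A. In blood, DNMT3A, TET2 and ASXL1 are known for mutations in clonal haematopoiesis, and EZH1 for its part in keeping adult HSCs.

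The stretches before the annotated starts of Ezh1, Ezh2, Uhrf1 and Dnmt1 are shown because the results below turn on these genes (RefSeq, GRCm38.p6; each 5′ to 3′ on the strand of the gene). Capitals mark the letters TTTCCCGC, TTTCGCGC, TTTGCCGC or TTTGGCGC (E2F motif), CCAAT (the box of that name) and GGGCGG (GC box) on either strand. Bases that overlap an annotated exon were left out, which shortened the windows of Ezh2 and Dnmt1. For Uhrf1 the second and for Dnmt1 the third annotated start is shown.
Ezh1, minus strand, chr11:101226464-101226713: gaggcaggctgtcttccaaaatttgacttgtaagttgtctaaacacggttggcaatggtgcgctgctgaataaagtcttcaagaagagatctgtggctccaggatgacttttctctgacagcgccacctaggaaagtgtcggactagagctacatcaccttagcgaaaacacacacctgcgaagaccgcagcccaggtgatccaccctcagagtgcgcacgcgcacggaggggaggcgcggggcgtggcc
Ezh2, minus strand, chr6:47595059-47595183: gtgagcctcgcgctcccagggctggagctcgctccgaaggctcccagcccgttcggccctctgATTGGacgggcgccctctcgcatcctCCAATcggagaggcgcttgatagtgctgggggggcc
Uhrf1, plus strand, chr17:56304063-56304312: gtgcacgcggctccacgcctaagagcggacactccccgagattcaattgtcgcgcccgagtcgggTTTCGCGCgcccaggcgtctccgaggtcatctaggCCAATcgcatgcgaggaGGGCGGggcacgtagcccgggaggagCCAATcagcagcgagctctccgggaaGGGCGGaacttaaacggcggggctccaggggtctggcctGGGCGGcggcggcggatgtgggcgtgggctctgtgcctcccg
Dnmt1, minus strand, chr9:20952624-20952707: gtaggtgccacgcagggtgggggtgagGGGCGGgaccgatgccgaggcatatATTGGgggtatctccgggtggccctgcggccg

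In the whole window of 250 bases, Ezh1 had 14 CpG sites and none of these motifs, while Ezh2 had 23 CpG sites and 3 CCAAT boxes. Uhrf1 had 30 CpG sites, 1 E2F motif, 2 CCAAT boxes and 3 GC boxes, and Dnmt1 had 26, 1, 3 and 2. The other annotated start of Uhrf1 had 10 CpG sites, 0 E2F motifs, 1 CCAAT box and 1 GC box, and the first and second starts of Dnmt1 had 2 and 7 CpG sites, 4 and 0 CCAAT boxes and neither an E2F motif nor a GC box, so the windows shown are those with the most motifs. Over 32851 windows of this length the median was 6 CpG sites, and 1.86% held an E2F motif, 33.8% a CCAAT box and 32.7% a GC box. A match describes the letters only.

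Levels between genes were compared as CPM per kilobase (kb) of exon, where the length joins all annotated exons of a gene. The order therefore depends on the annotation. Dnmt1 had the highest mean of the 4 group means (43.0), followed by Uhrf1 (32.1), Dnmt3b (23.1), Ezh2 (16.2), Dnmt3a (14.3), Ezh1 (10.03), Asxl1 (8.61), Tet3 (7.07), Tet1 (4.69) and Tet2 (3.40). The ranges of all neighbours in this order overlapped. The higher-ranked neighbour was higher in 13 of 15 libraries for Tet3 over Tet1, in 11 of 15 for each of the first 4 pairs, and in only 7 of 15 for Ezh1 over Asxl1. Ezh1 varied most, by 17.9 times between its lowest and highest library, and Dnmt3a least, by 3.16 times.

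**Figure D1:**
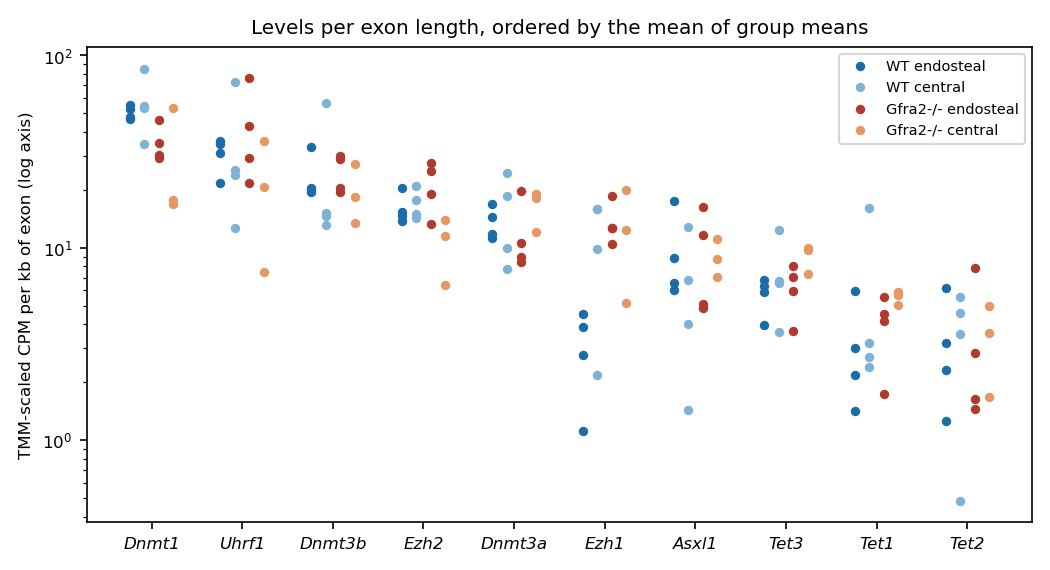
CPM per kb of exon (log axis) of the 10 genes in each of the 15 libraries, coloured by group and ordered by the mean of the group means. Dnmt1 (43.0) stands at the left and Tet2 (3.40) at the right, and the endosteal WT points of Ezh1 lie below nearly all its other points.

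The 4 pairwise comparisons asked whether these genes differed between BM compartments within a genotype, or between genotypes within a compartment. Because the cells are measured in bulk pools, fewer cells of a type and less RNA per cell cannot be told apart, and p-values measure the spread between libraries, which may be partly technical. No member passed a false discovery rate (FDR) of 0.1 in edgeR's quasi-likelihood test. Among all genes tested, 0% passed in endosteal against central WT HSCs, 0% in endosteal against central HSCs labelled Gfra2-/-, 0.051% in central HSCs labelled Gfra2-/- against WT and 0% in endosteal HSCs labelled Gfra2-/- against WT. At an unadjusted p under 0.05, 1, 1, 0 and 2 of the 10 members passed in these comparisons, beside 7.89%, 4.79%, 8.73% and 6.69% of all genes. With DESeq2, 0, 0, 0 and 1 members passed an FDR of 0.1, beside 4.52%, 2.78%, 5.17% and 3.71%. Groups did not overlap for 0, 0, 1 and 2 members, beside 6.36%, 7.34%, 12.4% and 6.24%.

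**Figure D2:**
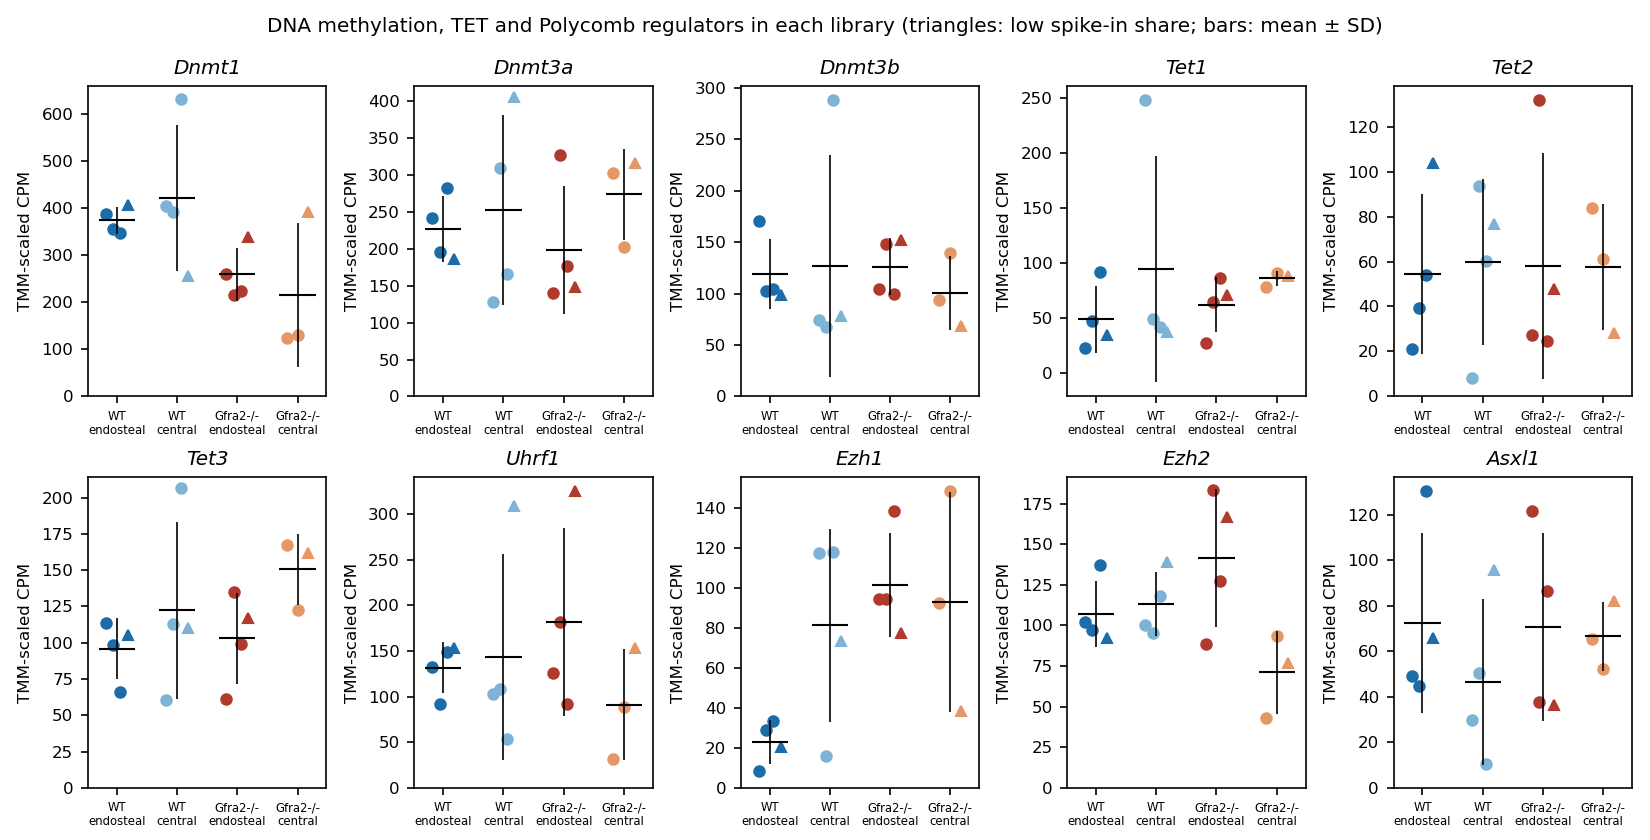
CPM of each of the 10 genes by group, with 1 point for each of the 15 libraries, triangles for the 4 libraries with less than 0.5% spike-in RNA and bars for the mean ± SD. All 4 endosteal WT libraries lie at 33.6 CPM or less for Ezh1, below all 4 endosteal libraries labelled Gfra2-/- (77.6 CPM or more).

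Ezh1 (chromosome 11, 101191115 to 101226463, minus strand) showed the largest difference. Endosteal WT libraries A to D had 8.29, 28.9, 33.6 and 20.7 CPM, from 34 to 434 counts. Central WT libraries had 118, 16.2, 118 and 73.5 CPM. Endosteal libraries labelled Gfra2-/- had 94.4, 94.8, 139 and 77.6 CPM, and central ones 92.3, 148 and 38.4 CPM. Endosteal WT HSCs thus held the low values, with no overlap with endosteal libraries labelled Gfra2-/-, whereas central WT library B lay within the endosteal WT range. The mean was 22.9 ± 11.1 CPM in endosteal WT HSCs and 101 ± 26.0 CPM in endosteal HSCs labelled Gfra2-/- (SD, n = 4 per group). The log2 fold change was 2.15 ± 0.51 (SE).

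The call for Ezh1 depended on the tool. In edgeR the FDR was 0.574, while the DESeq2 Wald test gave a log2 fold change of 2.16 and an FDR of 0.000875. The exact two-sided permutation test of the log2(CPM + 1) means gave p = 0.0286, the smallest that 4 against 4 libraries allow. Exact permutation p-values of single genes are not adjusted here, and those of pairwise comparisons come from 40 tests. The difference in log2(CPM + 1) was 2.35 in libraries with a high and 1.86 in those with a low spike-in share. Under 16 alternatives the log2 fold change ranged from 1.85 to 2.39, and it was 2.33 without libraries B and D labelled Gfra2-/-, which held Gfra2 counts. In endosteal against central WT HSCs, Ezh1 had a log2 fold change of -1.85 ± 0.75 (edgeR FDR 0.586; DESeq2 FDR 0.127; exact permutation p = 0.114), which ranged from -2.18 to -0.98 under 16 alternatives and was nearest to 0 without central WT libraries A and C.

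Ezh2 (chromosome 6, 47530139 to 47595341, minus strand) followed a different pattern; 174 of its exon bases overlap Gm26625 on the other strand. Its levels were 102, 97.3, 137 and 92.5 CPM in endosteal WT and 100.5, 95.1, 118 and 139 CPM in central WT libraries. Endosteal libraries labelled Gfra2-/- had 88.3, 183, 127 and 167 CPM, and central ones 42.8, 93.4 and 76.9 CPM. The lowest 2 of all 15 values were therefore in central HSCs labelled Gfra2-/-, whose range ended just below that of central WT HSCs. This difference had an exact permutation p of 0.0286, but a log2 fold change of only -0.70 with an edgeR FDR of 0.750. Within genotype, endosteal against central HSCs labelled Gfra2-/- had a log2 fold change of 0.99 ± 0.40 (edgeR FDR 0.999; exact permutation p = 0.0857), and the groups overlapped.

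The ratio of Ezh2 to Ezh1 counts within a library does not depend on size factors. It is less certain where counts are low, as for Ezh1 in endosteal WT library A (34 counts) and central WT library B (52 counts). As log2, it was 3.60, 1.75, 2.03 and 2.16 in endosteal WT and -0.23, 2.55, 0.00 and 0.92 in central WT libraries. It was -0.10, 0.95, -0.12 and 1.10 in endosteal and -1.11, -0.67 and 1.001 in central libraries labelled Gfra2-/-. All endosteal WT libraries thus held more Ezh2 than Ezh1 reads, and per kb of exon the geometric mean ratio was 5.82 there, against 1.95, 1.53 and 0.932 in central WT, endosteal and central HSCs labelled Gfra2-/-. Between endosteal HSCs of both genotypes, the log2 ratio was 1.93 lower in libraries labelled Gfra2-/- without overlap (mean difference -1.93, exact permutation p = 0.0286, 0.571 after Benjamini-Hochberg adjustment over 20 ratio tests). It was -2.22 in libraries with a high and -1.05 in those with a low spike-in share. None of the 20 ratio tests passed after adjustment. The smallest p that these group sizes allow is 0.0286, so a single ratio could not pass the adjustment, whatever its difference.

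**Figure D3:**
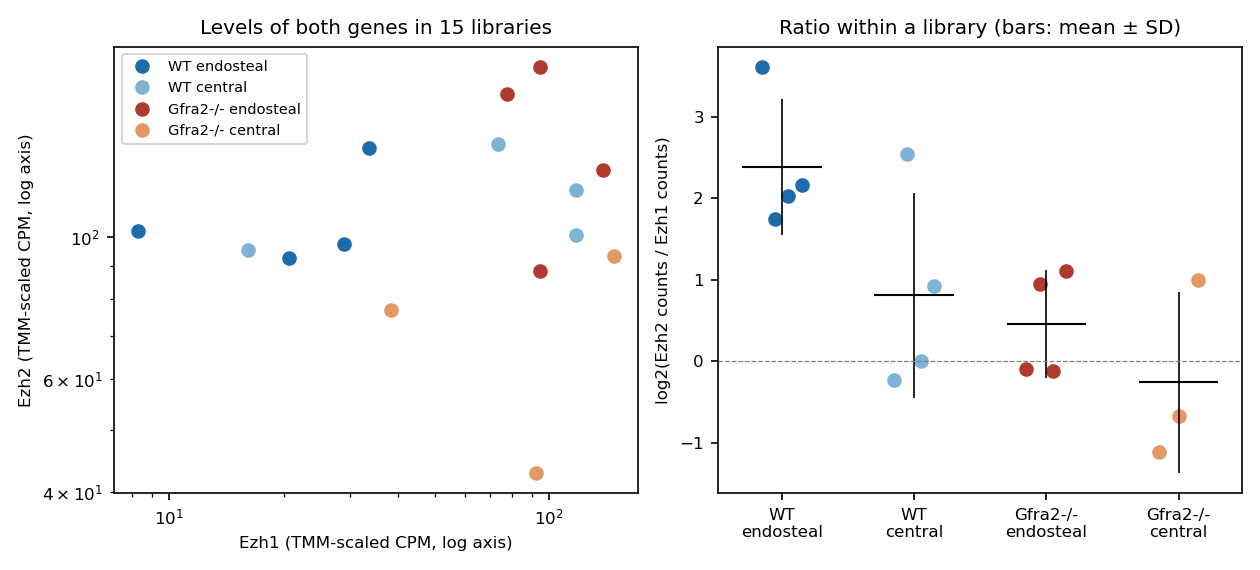
Left, CPM of Ezh1 and Ezh2 (log axes) in the 15 libraries by group; right, the log2 ratio of Ezh2 to Ezh1 counts in each library with the mean ± SD. The 4 endosteal WT ratios lie between 1.75 and 3.60, above all 4 ratios of endosteal libraries labelled Gfra2-/- (at most 1.10).

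Asxl1 (chromosome 2, 153345829 to 153404007, plus strand) spread widely in most groups, and 197 of its exon bases overlap 2500004C02Rik. It ranged from 45.0 to 130 CPM in endosteal WT, from 10.7 to 95.7 in central WT, from 36.4 to 122 in endosteal and from 52.3 to 82.2 in central libraries labelled Gfra2-/-. Its lowest library held 8 counts. Its largest fitted difference was a log2 fold change of 0.60 ± 0.70 in endosteal against central WT HSCs (edgeR FDR 0.875; exact permutation p = 0.314).

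Among the methyltransferases, Dnmt1 (chromosome 9, 20907209 to 20959888, minus strand) differed most. It had 387, 355, 346 and 405 CPM in endosteal WT and 404, 391, 630.2 and 256 CPM in central WT libraries. Endosteal libraries labelled Gfra2-/- had 259, 215, 224 and 339 CPM, and central ones 125, 129.9 and 391 CPM. The endosteal WT libraries lay close together and all above the endosteal libraries labelled Gfra2-/-, while in central BM library C labelled Gfra2-/- lay above central WT library D. The log2 fold change between genotypes was -0.52 ± 0.22 in endosteal HSCs (edgeR FDR 0.737; exact permutation p = 0.0286) and -0.98 ± 0.47 in central HSCs (edgeR FDR 0.598; exact permutation p = 0.143). The central value ranged from -1.76, without library C labelled Gfra2-/-, to -0.10, with spike-in size factors and relative to the median of all genes. In log2(CPM + 1), the central difference was -1.86 in libraries with a high spike-in share and 0.61 in the 1 library of each group with a low share, so its direction did not hold within both.

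Dnmt3a (chromosome 12, 3806007 to 3914443, plus strand; 133 exon bases shared with Dnmt3aos) had group means of 227 ± 44.4, 252 ± 128, 198 ± 87.1 and 274 ± 62.2 CPM in endosteal WT, central WT, endosteal and central libraries labelled Gfra2-/-. Dnmt3b (chromosome 2, 153649450 to 153687730, plus strand) had 119 ± 34.1, 127 ± 108, 126 ± 27.9 and 100.3 ± 35.8 CPM (SD, n = 4, 4, 4 and 3). For both genes the intervals of mean ± SD overlapped between all groups, and the smallest edgeR FDR of either gene over the 7 fits was 0.805. The Dnmt3b mean of central WT HSCs rested on library C, with 288 CPM against 67.2 to 77.9 in the other libraries. Per kb of exon, Dnmt3b exceeded Dnmt3a by a geometric mean of 1.17 to 2.17 times in the 4 groups. In counts, the geometric mean ratio of Dnmt3b to Dnmt3a was 0.358 to 0.665, so Dnmt3a had more reads in each group. The direction per kb thus rests on the annotated exon lengths, 5106 bases for Dnmt3b and 16642 for Dnmt3a.

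Uhrf1 (chromosome 17, 56303321 to 56323486, plus strand) had 132, 92.1, 148 and 153 CPM in endosteal WT and 102, 108, 53.6 and 309 CPM in central WT libraries. Libraries labelled Gfra2-/- had 125, 182, 92.2 and 325 CPM in endosteal and 31.7, 88.7 and 153 CPM in central HSCs. In every group the highest value was that of the library with a low spike-in share, and all groups overlapped. The 309 CPM came from central WT library D, which also had the highest neutrophil markers. The 325 CPM came from endosteal library D labelled Gfra2-/-, which had the highest B cell and erythroid markers. The part of either trait was not tested. Its largest log2 fold change, 0.99 ± 0.60 in endosteal against central HSCs labelled Gfra2-/-, had an edgeR FDR of 0.999 (exact permutation p = 0.2). The log2 ratio of Dnmt1 to Uhrf1 was 1.53 ± 0.31 in endosteal WT HSCs and 0.66 ± 0.60 in those labelled Gfra2-/-, a difference that did not pass the test (exact permutation p = 0.0571, adjusted p = 0.571).

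By the mean of group means, the TET genes were the lowest of the 10 per kb of exon. Asxl1 exceeded Tet3 per kb in only 9 of 15 libraries, and without division by length the mean CPM of Tet3 was the higher in each group. The smallest edgeR FDR of the TET genes over the 7 fits was 0.722. Tet1 (chromosome 10, 62804570 to 62908996, minus strand) ranged from 21.9 to 91.7 CPM in endosteal WT and from 37.1 to 248 in central WT libraries. In libraries labelled Gfra2-/- it ranged from 26.7 to 85.6 CPM in endosteal and from 78.1 to 90.9 in central HSCs. The 248 CPM came from central WT library A, where the other 3 libraries had 49.1 CPM or less. Its log2 fold change in endosteal against central WT HSCs was -0.97 (edgeR FDR 0.783; exact permutation p = 0.486).

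Tet2 (chromosome 3, 133463679 to 133545139, minus strand; 43 exon bases shared with Gm42567) ranged from 21.2 to 104 CPM in endosteal WT and from 8.15 to 93.6 in central WT libraries, where the lowest held 9 counts. It ranged from 24.5 to 132 CPM in endosteal and from 28.1 to 83.6 in central libraries labelled Gfra2-/-. The 4 group means of Tet2 lay between 54.5 and 59.7 CPM, far closer than the libraries within any group. Tet3 (chromosome 6, 83362373 to 83459084, minus strand) had means of 95.8 ± 20.9, 122 ± 60.9, 103 ± 31.4 and 151 ± 24.5 CPM, with a log2 fold change of -0.54 in endosteal against central HSCs labelled Gfra2-/- (edgeR FDR 0.999; exact permutation p = 0.114).

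**Figure D4:**
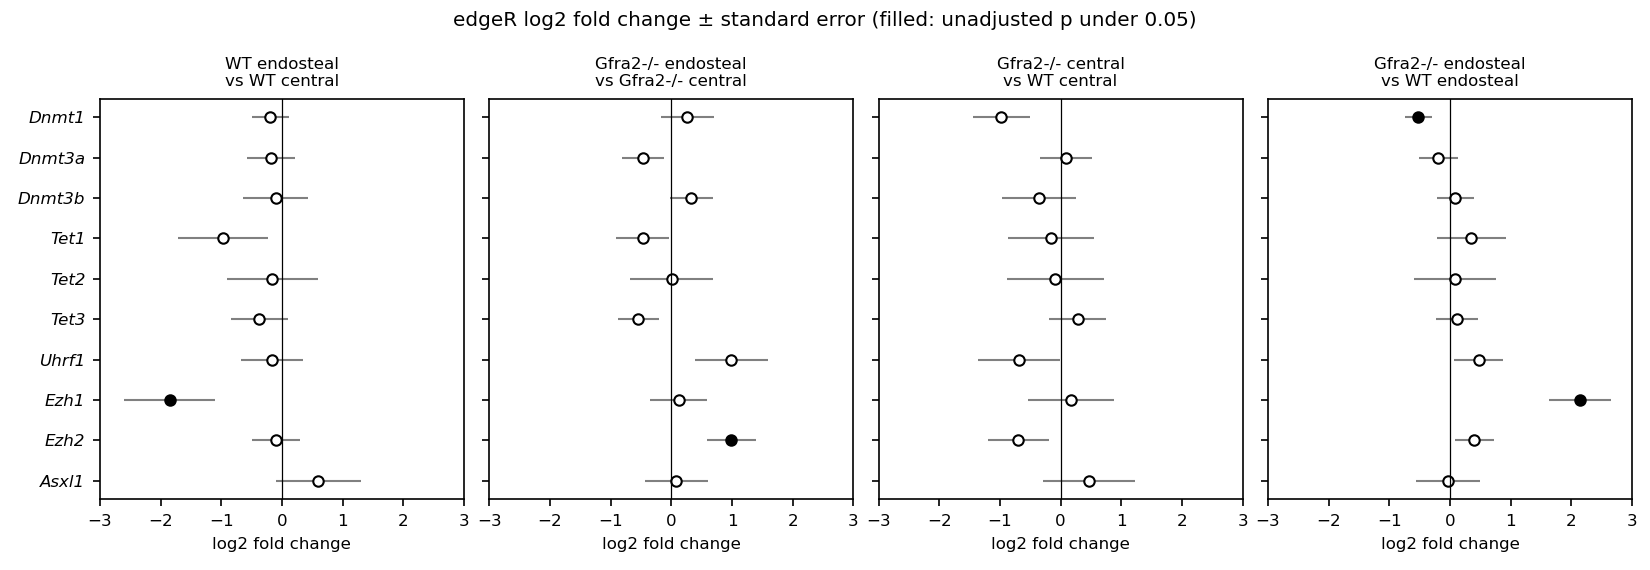
edgeR log2 fold change ± SE of the 10 genes in the 4 pairwise comparisons, with filled points for an unadjusted p under 0.05. Filled points are Ezh1 (-1.85) in the WT comparison, Ezh2 (0.99) in the comparison within Gfra2-/-, and Ezh1 (2.15) and Dnmt1 (-0.52) between endosteal HSCs; none passed an FDR of 0.1.

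Further fits over all 15 libraries asked for a compartment effect adjusted for genotype, a genotype effect adjusted for compartment, and their interaction. Again 0 of 10 members passed an FDR of 0.1 in edgeR, where 0.029%, 0.936% and 0% of all genes did, and 0 of 10 in DESeq2, where 3.5%, 8.44% and 1.69% did. At an unadjusted p under 0.05, 0, 2 and 1 members passed, beside 8.12%, 11.5% and 6.97% of all genes. Dnmt1 was lower in libraries labelled Gfra2-/- by a log2 fold change of -0.74 ± 0.26 (edgeR FDR 0.264), and the exact permutation test within compartments gave p = 0.0122. Ezh1 was higher by 1.26 ± 0.52 (edgeR FDR 0.351; exact permutation p = 0.0429). For the interaction, Ezh1 had 1.94 ± 0.89 (edgeR FDR 0.697) and Ezh2 1.07 ± 0.53 (edgeR FDR 0.713), so neither compartment difference was shown to depend on genotype.

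Of 48 partner genes (DNA methylation partners, PRC2, PRC1, and the BAP1 complex with H3K27 demethylases), 46 were tested and 0 passed an FDR of 0.1 in edgeR in any of the 7 comparisons. In the pairwise comparisons 20, 25, 19 and 23 of the 46 had a positive log2 fold change, with medians of -0.13, 0.05, -0.16 and -0.02, beside 0.03 for all genes in each. At an unadjusted p under 0.05, 0, 0, 0 and 1 passed, and 3, 4 and 0 in the compartment, genotype and interaction fits, beside 7.89%, 4.79%, 8.73%, 6.69%, 8.12%, 11.5% and 6.97% of all genes in these 7 comparisons.

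Ogt, which encodes the O-GlcNAc transferase that binds TET proteins and the BAP1 complex, had the smallest p of these genes. Its medians were 482 and 471 CPM in endosteal and central WT and 735 and 776 CPM in endosteal and central libraries labelled Gfra2-/-. The genotype effect was 0.51 ± 0.15 on the log2 scale (edgeR FDR 0.173; DESeq2 FDR 0.00962), and 0.50 between endosteal HSCs (edgeR FDR 0.737). Also for genotype, Cbx6, a PRC1 chromobox gene, had 0.76 (edgeR FDR 0.383) and Trim28, a heterochromatin corepressor gene, -0.45 (edgeR FDR 0.405). For endosteal against central HSCs, Idh2, whose enzyme makes the TET cofactor 2-oxoglutarate, had 0.69 (edgeR FDR 0.486), and Cbx2, a PRC1 chromobox gene, 2.14 (edgeR FDR 0.611). The Cbx2 value rests on low levels, with medians of 1.70 and 7.83 CPM in central WT and central libraries labelled Gfra2-/-. In endosteal WT and endosteal libraries labelled Gfra2-/- its medians were 26.1 and 22.4 CPM.

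Maintenance methylation is coupled to replication, so the members were set beside 34 replication and cell-cycle genes. In endosteal against central WT HSCs, 22 of 33 tested had a positive log2 fold change, and 30 of 34 in HSCs labelled Gfra2-/-. The medians were 0.13 and 0.50, beside 0.03 for all genes in each. Between genotypes 12 of 34 were positive in central and 20 of 34 in endosteal HSCs, and 0 passed an FDR of 0.1 in any comparison. In the compartment fit adjusted for genotype, 27 were positive and 7 negative, with a median of 0.49 beside 0.06 for all genes. There 5 passed an unadjusted p under 0.05, beside 8.12% of all genes. These genes share libraries, so the counts are not of separate observations. The mean log2(CPM + 1) of the list differed by 0.25, 0.58, -0.12 and 0.21 in the 4 pairwise comparisons. None of these differences passed the test (exact permutation p = 0.457, 0.114, 0.6 and 0.6), which has little power with so few libraries. The 2 smallest p were those of Tyms, the thymidylate synthase gene (compartment effect 1.49, edgeR FDR 0.309), and Fen1, a flap endonuclease gene, which had 0 CPM in all 4 central WT libraries and 2.95 to 4.26 CPM in central libraries labelled Gfra2-/- (edgeR FDR 0.334). The Fen1 value rests on low levels, with 0.487 to 6.18 CPM in endosteal WT libraries. Its zeros fell in the group with the fewest counts on genes.

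Across the 15 libraries, after subtraction of group means, no member was correlated with the mean log2(CPM + 1) of these genes after adjustment over the 10 members. Tet2 had the highest value, with r = 0.66 (permutation p = 0.0135, adjusted p = 0.135) and rho = 0.61 (permutation p = 0.0340, adjusted p = 0.258). In the 11 libraries with a high spike-in share its r was 0.78. Without the 2 libraries farthest from the median it was 0.58 (unadjusted permutation p = 0.0865). Dnmt3a (r = 0.74, unadjusted permutation p = 0.00838) and Tet3 (r = 0.69, unadjusted permutation p = 0.0209) then lay higher. Uhrf1 and Dnmt1, the maintenance genes, had r = 0.33 and 0.16, and -0.17 and -0.19 in those 11 libraries.

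Among the members themselves, Uhrf1 and Ezh2 had the highest correlation of log2(CPM + 1) over 15 libraries (r = 0.70, and 0.61 after subtraction of group means), and Dnmt3b and Asxl1 the lowest (-0.61 and -0.75). Of 15416 genes, those most like Ezh1 were Patj (r = 0.85) and 4930402H24Rik (0.84), and those most like Dnmt1 were Stmn1 (0.87) and Arf5 (0.83). Ezh2 was most like Klhdc2 (0.83) and Ado (0.75), Uhrf1 like Hlcs (0.88) and Ralb (0.84), Dnmt3a like Trim59 (0.82) and Dnmt3b like Cpq (0.85). Tet1 was most like Tceal5 (0.90), Tet2 like Eif2a (0.85), Tet3 like the pseudogene Psmb6-ps2 (0.84) and Asxl1 like Rbpms (0.90). These values share libraries and depth and describe the libraries only.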

How the data were processed

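HSC pools were sequenced with Smart-seq2 (single end), and the authors aligned reads with GSNAP to GRCm38 and counted them per gene with HTSeq (version 0.5.3p3) without regard to strand, so reads of overlapping antisense genes cannot be told apart. The deposited values are raw counts for 46078 genes, 92 spike-in RNAs and 5 summary categories, which held 54.6% to 80.3% of a library's reads and were left out. The columns of each group were identified from the study's lists of samples, and 1 column of per-sample values was not mapped and not used.

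Genes were named from GENCODE M21 (45229 matched). Counts were tested with edgeR 4.0.16 in R 4.3.3 (filterByExpr, TMM, quasi-likelihood test, Benjamini-Hochberg adjustment over all genes tested, FDR 0.1), with DESeq2 1.42.0 as an alternative. The pairwise fits used only the libraries of both groups. CPM were scaled by TMM, ratios within a library used a pseudocount of 0.5, and single values were compared by two-sided exact permutation tests (Python 3.11.15, scipy 1.17.1), with 100000 permutations within groups for correlations. Scripts were tested on simulated data. Without molecular identifiers, PCR copies cannot be told from separate molecules, and depth speaks for counting error only.

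The members and lists were chosen with earlier results of these data known. Named beside the members are partner genes with an unadjusted p under 0.05 (at most 3 per comparison), the 2 replication genes with the smallest p, and the 2 genes most like a member. The values of 1 gene that this rule names are not reported here. Alternatives were DESeq2's test or size factors, spike-in size factors, no filter, thinned counts, one fit of all 4 groups, the libraries that passed quality cut-offs (over 8500 genes, under 20% mitochondrial and enough counts, which central WT libraries A and C did not pass), spike-in share as a term, each library left out in turn and, chosen after seeing the data, leaving out the endosteal libraries labelled Gfra2-/- with more than 3 Gfra2 counts.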

Additional observations from a re-analysis of the deposited data

Results flagged for a closer look

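In 4 of 45 groups examined, a single library stood apart from the others of its group by Dixon's criterion at 95%, which chance gives in about 1 in 20 groups. Dnmt3b was at 170 CPM in endosteal WT library A, where the other 3 libraries had 99.0 to 105 CPM, and at 288 CPM in central WT library C, from 215 counts. Tet1 was at 248 CPM in central WT library A, from 274 counts, and the log2 ratio of Tet1 to Tet2 was 4.85 in the same library, where Tet2 had 9 counts. Central WT libraries A and C were the 2 with the fewest counts on genes (1230252 and 826487).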

How the results depend on the processing

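The difference in Ezh1 between endosteal HSCs kept its direction under all 16 alternatives and passed an FDR of 0.1 only with DESeq2. Dnmt1 kept its direction between genotypes in both compartments under the alternative fits, but in central HSCs its log2 fold change ranged from -1.76 to -0.10, and its log2(CPM + 1) was 0.61 higher in the 1 library with a low spike-in share labelled Gfra2-/- than in that of WT. Changes of sign were otherwise common, and none of the values that turned sign passed a test across all genes. No paired analysis was possible because no column of the deposited table names a replicate. With spike-in size factors, the log2 fold change of the median gene was 1.58, -0.46, 1.75 and -0.28 in the 4 pairwise comparisons and 0.63, 0.72 and -2.18 in the compartment, genotype and interaction fits. With spike-in scaling, r with the replication genes shares that scaling on both axes. The causes of these changes were not tested. Below, a comparison is named by what differs in it, and Gfra2-/- compartments stand for endosteal against central libraries labelled Gfra2-/-.

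With DESeq2's test, the number of genes past the threshold was 607 (WT compartments), 397 (Gfra2-/- compartments), 725 (central genotypes), 532 (endosteal genotypes), 528 (compartment effect), 1250 (genotype effect), 245 (interaction). With DESeq2's test, the log2 fold change had the other sign for Dnmt1 -0.0635 (compartment effect), Tet2 -0.0194 (genotype effect). Without a filter on low counts, the number of genes past the threshold was 58 (WT compartments), 134 (central genotypes), 30 (compartment effect), 66 (genotype effect). Without a filter on low counts, the log2 fold change had the other sign for Dnmt3b 0.00462 (WT compartments). With thinned counts, the number of genes past the threshold was 4 (WT compartments), 17 (central genotypes), 8 (compartment effect). With thinned counts, the log2 fold change had the other sign for Tet2 -0.00979 (Gfra2-/- compartments), Dnmt1 -0.0939 (compartment effect), Tet2 -0.0277 (genotype effect). With thinned counts, the log2 ratio difference had the other sign for Tet2 over Tet3 0.0888, Tet1 over Tet2 -0.0324 (central genotypes). With all 4 groups fitted together, the number of genes past the threshold was 22 (WT compartments), 1 (endosteal genotypes). With the spike-in share as a term, the number of genes past the threshold was 1 (WT compartments), 2 (central genotypes). With the spike-in share as a term, the log2 fold change had the other sign for Uhrf1 0.14 (WT compartments), Tet1 0.0484 (central genotypes). With spike-in size factors, the number of genes past the threshold was 15 (Gfra2-/- compartments), 2 (central genotypes), 6 (endosteal genotypes), 44 (genotype effect), 193 (interaction). With spike-in size factors, r with the replication genes was Dnmt1 0.96, Dnmt3a 0.95, Dnmt3b 0.92, Tet1 0.86, Tet3 0.97, Uhrf1 0.94, Ezh1 0.84, Ezh2 0.96, Asxl1 0.89. Over libraries past the quality cut-offs, the number of genes past the threshold was 0 (central genotypes), 1 (compartment effect), 37 (genotype effect). Over libraries past the quality cut-offs, the log2 fold change had the other sign for Dnmt1 0.19, Dnmt3b 0.70, Tet1 0.16, Asxl1 -0.0224 (WT compartments), Dnmt3a -0.43, Dnmt3b 0.43, Tet1 0.95, Asxl1 -0.18 (central genotypes), Dnmt3b 0.23, Tet2 -0.16, Asxl1 -0.0769 (genotype effect), Dnmt3a 0.20, Dnmt3b -0.38, Tet1 -0.66, Asxl1 0.0878 (interaction). With DESeq2 size factors in edgeR, the number of genes past the threshold was 8 (compartment effect). With DESeq2 size factors in edgeR, the log2 fold change had the other sign for Tet2 -0.00403 (Gfra2-/- compartments), Dnmt1 -0.0657 (compartment effect), Tet2 -0.0206 (genotype effect). Without endosteal libraries B and D labelled Gfra2-/-, the number of genes past the threshold was 0 (compartment effect), 25 (genotype effect). Without endosteal libraries B and D labelled Gfra2-/-, the log2 fold change had the other sign for Tet2 -1.14 (Gfra2-/- compartments), Dnmt3b -0.22, Tet2 -1.07, Tet3 -0.26, Uhrf1 -0.27, Asxl1 0.52 (endosteal genotypes), Dnmt1 -0.054, Dnmt3b -0.0524 (compartment effect), Tet2 -0.49 (genotype effect), Tet2 -1.04, Asxl1 0.00171 (interaction). With spike-in size factors, relative to the median of all genes, the log2 fold change had the other sign for Dnmt1 0.30, Dnmt3b 0.15, Tet2 0.0862, Asxl1 -0.33 (WT compartments), Asxl1 -0.40 (Gfra2-/- compartments), Dnmt3a -0.47, Tet1 0.69, Ezh1 -0.25, Asxl1 -0.32 (central genotypes), Tet2 -0.81 (endosteal genotypes), Tet2 0.0945, Uhrf1 -0.0438, Asxl1 -0.38 (compartment effect), Dnmt3b 0.0954, Tet2 -0.89, Asxl1 -0.40 (genotype effect), Dnmt1 -0.14, Dnmt3a 0.31, Asxl1 0.069 (interaction). Over the libraries with a high spike-in share, r with the replication genes was Dnmt1 -0.19, Tet1 0.14, Uhrf1 -0.17, Ezh1 0.10, Asxl1 -0.19. Without the 2 libraries farthest from the median, r with the replication genes was Dnmt3a 0.74, Dnmt3b 0.00274, Tet2 0.58, Tet3 0.69, Asxl1 -0.0924.

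Leaving out 1 library at a time gave, as genes past the threshold, 0 to 6 (WT compartments), 0 to 8 (central genotypes), 0 to 8 (compartment effect), 28 to 180 (genotype effect). Log2 fold changes that turned sign when 1 library was left out had these ranges: Dnmt1 -0.40 to 0.0788, Dnmt3a -0.39 to 0.12, Dnmt3b -0.37 to 0.69, Tet1 -1.48 to 0.18, Tet2 -0.66 to 0.15, Tet3 -0.58 to 0.00559, Uhrf1 -0.42 to 0.52 (WT compartments), Dnmt1 -0.00865 to 1.03, Tet2 -0.80 to 0.37, Ezh1 -0.24 to 0.64, Asxl1 -0.31 to 0.30 (Gfra2-/- compartments), Dnmt3a -0.13 to 0.40, Dnmt3b -0.67 to 0.42, Tet1 -0.44 to 0.98, Tet2 -0.46 to 0.22, Uhrf1 -1.31 to 0.00916, Ezh1 -0.36 to 0.53 (central genotypes), Dnmt3b -0.0271 to 0.29, Tet2 -0.72 to 0.60, Tet3 -0.0581 to 0.28, Asxl1 -0.45 to 0.41 (endosteal genotypes), Dnmt1 -0.11 to 0.28, Dnmt3b -0.00157 to 0.50, Tet2 -0.43 to 0.0811 (compartment effect), Dnmt3a -0.24 to 0.0575, Dnmt3b -0.21 to 0.22, Tet1 -0.0308 to 0.60, Tet2 -0.41 to 0.25, Uhrf1 -0.34 to 0.27, Ezh2 -0.22 to 0.0756 (genotype effect), Dnmt3b -0.38 to 0.69, Tet1 -0.67 to 0.98, Tet2 -0.65 to 0.67, Tet3 -0.58 to 0.00387 (interaction). Log2 ratio differences that changed sign or call ranged as Ezh2 over Ezh1 1.17 to 2.15 (WT compartments), Dnmt3b over Dnmt3a -0.21 to 0.84 (WT compartments), Tet2 over Tet3 -0.17 to 0.80 (WT compartments), Tet2 over Tet3 -0.58 to 0.22 (endosteal genotypes), Tet1 over Tet2 -1.27 to 0.70 (WT compartments), Tet1 over Tet2 -0.0348 to 0.91 (endosteal genotypes), Dnmt1 over Uhrf1 -0.92 to 0.34 (WT compartments), Dnmt1 over Uhrf1 -1.08 to -0.67 (endosteal genotypes). Ranges that held both signs were also found in comparisons with central libraries labelled Gfra2-/-. For Gfra2-/- compartments these were Tet2 over Tet3 -0.12 to 0.68 and Tet1 over Tet2 -0.88 to 0.0817. For central genotypes they were Dnmt3b over Dnmt3a -0.81 to 0.31, Tet2 over Tet3 -0.66 to 0.34, Tet1 over Tet2 -0.43 to 1.54 and Dnmt1 over Uhrf1 -1.16 to 0.11.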
